A study of Homo sapiens with 2 samples.

Results

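Genes of the endoplasmic reticulum (ER) stress response and of ER-associated degradation (ERAD) were examined for peaks of the zinc finger transcription factor ZFX in DAOY, a human line established from a medulloblastoma. There were 6 genes, HSPA5, XBP1, ATF4, DDIT3, SEL1L and SYVN1. They were chosen as members of this pathway with earlier results of these data known, so the count of genes with a peak is a description. A peak was assigned to a gene when it overlapped the 5 kb on either side of the gene's start site on the hg19 build. By this rule all 6 genes carried a peak, and 9 of the 14471 peaks in the deposited list belonged to them. The study held 2 samples of DAOY chromatin, 1 precipitated with a rabbit polyclonal antibody against ZFX and 1 sheared input without precipitation. The cells were grown in serum-containing medium, and the labels name no agent that provokes ER stress. The peaks come from the single ZFX library, whose read depth is unknown, and the input was not used here, so no value below has a replicate check or a test. Expression was not measured, and the label of the cell line could not be checked against markers.

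Proteins that enter the secretory pathway fold in the ER, and unfolded protein there activates the sensors IRE1, PERK and ATF6. IRE1 splices the mRNA of XBP1, PERK phosphorylates a translation initiation factor and thereby raises translation of ATF4, and ATF6 is cut to release a transcription factor. Proteins that fail to fold are moved out of the ER, ubiquitinated and degraded, the process called ERAD. Many chaperone genes of this response are known to carry the ER stress response element (ERSE) near their start site, which consists of the letters CCAAT, 9 bases of any kind and the letters CCACG.

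The sequence before the start sites is shown first, as a description of the promoters. Every one of the 6 start sites lay inside a peak. That peak reached only 59 bp upstream of the hg19 start at HSPA5, 77 bp at XBP1, 101 bp at DDIT3 and 50 bp at SEL1L. The bases printed below therefore extend well beyond the peak over the start. All 6 genes were found in the RefSeq promoter table on GRCh38.p14, which gives 250 bases before each start and 50 from it. For the 4 genes that hold the letters CCAAT on either strand, the 250 bases before the start are printed 5′ to 3′ along the gene, from the first listed window of each gene. On that build they lie on the minus strand at chr9:125241344-125241593 for HSPA5, chr22:28800570-28800819 for XBP1, chr12:57520515-57520764 for DDIT3 and chr14:81533854-81534103 for SEL1L. Capitals mark CCAAT, its complement ATTGG, and the CCACG that completes an ERSE.
HSPA5: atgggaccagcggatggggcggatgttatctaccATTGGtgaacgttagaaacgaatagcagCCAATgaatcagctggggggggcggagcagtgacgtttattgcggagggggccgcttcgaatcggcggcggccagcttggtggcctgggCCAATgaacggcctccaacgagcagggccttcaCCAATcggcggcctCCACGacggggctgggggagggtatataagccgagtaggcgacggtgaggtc
XBP1: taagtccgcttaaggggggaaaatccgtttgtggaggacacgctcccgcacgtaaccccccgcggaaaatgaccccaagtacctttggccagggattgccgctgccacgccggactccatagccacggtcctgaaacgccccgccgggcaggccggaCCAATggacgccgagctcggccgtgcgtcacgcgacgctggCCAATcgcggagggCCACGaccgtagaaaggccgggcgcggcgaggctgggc
DDIT3: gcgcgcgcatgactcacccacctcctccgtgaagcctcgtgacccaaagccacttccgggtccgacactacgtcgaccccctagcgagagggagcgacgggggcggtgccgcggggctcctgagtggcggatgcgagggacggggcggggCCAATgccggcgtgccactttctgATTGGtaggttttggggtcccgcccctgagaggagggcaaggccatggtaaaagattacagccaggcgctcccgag
SEL1L: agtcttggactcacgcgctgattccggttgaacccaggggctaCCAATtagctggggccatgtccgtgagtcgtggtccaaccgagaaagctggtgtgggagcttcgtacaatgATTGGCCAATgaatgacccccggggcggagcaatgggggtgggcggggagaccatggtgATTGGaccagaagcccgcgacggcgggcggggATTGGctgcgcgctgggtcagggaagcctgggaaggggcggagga

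The exact letters of the ERSE were present in the promoters of HSPA5 and XBP1 and on neither strand of the other 4. Sequences that differ from it by a letter were not searched for, so variant elements may be present in any of the 6. In the bases printed above, CCAAT is followed after 9 bases by CCACT at DDIT3 and by CCATG at SEL1L. Each of these differs from the ERSE by 1 letter. The exact match lay 66 to 48 bases before the RefSeq start of HSPA5, and 52 to 34 bases before that of XBP1. Of the 35116 promoter windows in the table, 27 (0.0769%) hold an exact match. The shorter CCAAT is common, with 34.6% of all windows holding it at least once. HSPA5 and SEL1L each held it 5 times, 1 of those at HSPA5 lying after the start, and 0.359% of all windows hold it 5 times or more. XBP1 and DDIT3 each held it 2 times in the first listed window, and no window of ATF4 or SYVN1 held it. CCAAT alone was looked for after the promoters had been seen, and the limit of 5 is the count seen at HSPA5 and SEL1L themselves. Other searched letters were ATTGG followed after 1 base by CCACG (ERSE-II), TGATGNAAN (a composite C/EBP-ATF element), TGACGTGG (the core of the unfolded protein response element) and AGGCCT (the core of the published ZFX motif), each on both strands. None of these 4 was found in a window of the 6 genes. They are held by 0.0541%, 3.61%, 0.729% and 10.9% of all windows in the same order. A missing match says only that these letters are not in these 300 bases. Start sites of the 2 builds were not matched base by base, so the elements cannot be placed against the edges of single peaks. The GC content of the first listed windows of the 6 genes ran from 57.3% in ATF4 to 68.7% in XBP1, against a median of 58.7% over all windows, and they held 22 to 40 CG dinucleotides, against a median of 14.

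A peak within 5 kb was thus found at 6 of 6 genes. As background, 4.15% of the 293653 consecutive tiles of 10 kb between the outermost peaks of each chromosome overlapped a peak, and 4.97% did so on the 5 chromosomes that carry these genes. With only peaks at or above the median score of the list counted, 5 of 6 genes had 1, against 2.41% of tiles, and with only peaks scoring 100 or more 5 of 6 genes had 1, against 2.55% of tiles. Tiles were laid without regard to start sites, and the share of all start sites with a peak was not analysed here, so nothing in the count sets these genes apart from other genes. Each of the 6 start sites lay inside a peak, and all 9 peaks fell between 1062 bp upstream and 799 bp downstream of a start. HSPA5, XBP1 and ATF4 had 2 peaks each, and DDIT3, SEL1L and SYVN1 had 1 each.

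**Figure D1:**
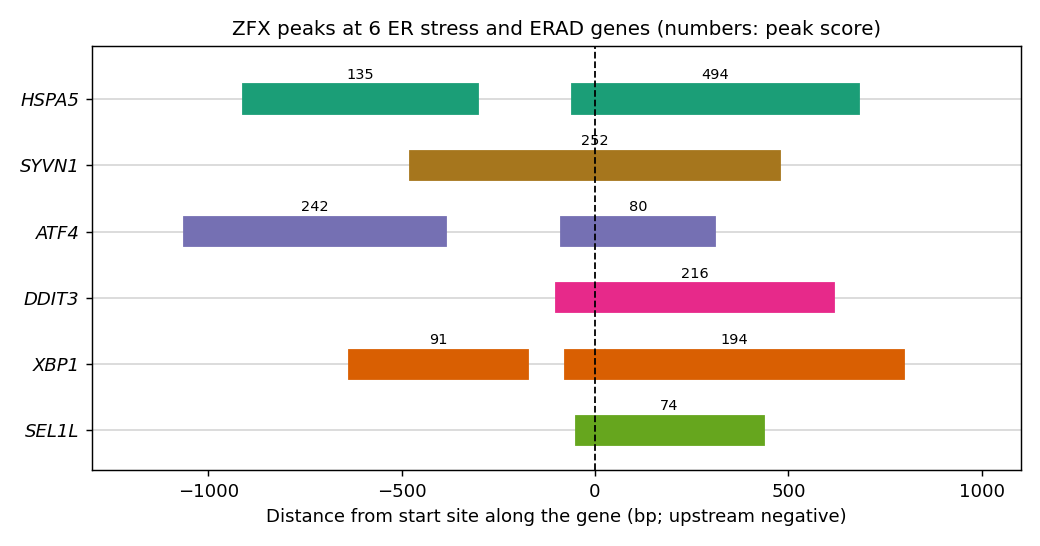
Peaks at the 6 genes, drawn as bars from edge to edge against distance from the start site along the gene in bp, with the score above each bar and genes ordered by their highest score. A bar crosses the dashed start line at each gene, and HSPA5, ATF4 and XBP1 have a separate bar upstream.

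HSPA5 encodes BiP, the main chaperone of the Hsp70 family in the ER, which also holds the stress sensors inactive. Its start site is at hg19 position 128003666 of chromosome 9, on the minus strand. The peak over the start covered 741 bp (chr9:128002985-128003725), from 59 bp upstream to 681 bp downstream, and scored 493.75. This score is the authors' own value for the peak and has no stated unit. The lowest score of the list was 50. The score 3100 was shared by 28 peaks but was not a ceiling, since the highest score was 3233.06. Such values could arise if the score were a log-transformed p-value with a threshold, which no source used here states. Scores are therefore used below only to order peaks, and a difference between them is not an amount of bound ZFX. The HSPA5 peak over the start had rank 1220 in the list, higher than or equal to 91.6% of all peaks. The other peak lay wholly upstream, from 911 to 303 bp before the start (chr9:128003969-128004577), covered 609 bp and scored 135.14, above the list median of 108.9. HSPA5 thus had the highest score of the 6 genes, although 304 peaks of the list scored 1000 or more and none of them was at these genes.

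Among the transcription factors, XBP1 is the substrate of IRE1 and drives chaperone and ERAD genes once its mRNA is spliced. Its start site is at position 29196560 of chromosome 22, on the minus strand. The peak over the start scored 193.62 and was 877 bp wide (chr22:29195761-29196637), from 77 bp upstream to 799 bp downstream. The upstream peak, from 636 to 175 bp before the start (chr22:29196735-29197196), scored 90.93 over 462 bp. As at HSPA5, the peak over the start was the wider and the higher scoring of the pair.

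ATF4 is the transcription factor whose translation rises when PERK is active, and it drives amino acid and redox genes as well as DDIT3. Its start site is at position 39916569 of chromosome 22, on the plus strand. Here the order of the pair was turned round. The peak over the start covered only 398 bp (chr22:39916482-39916879), from 87 bp upstream to 310 bp downstream, and scored 80.28. The upstream peak covered 677 bp (chr22:39915507-39916183), from 1062 to 386 bp before the start, and scored 241.56. The peak at the start of ATF4 was the narrowest of the 9, and it lay below the median score of the list.

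DDIT3 encodes CHOP, a transcription factor downstream of ATF4 that promotes cell death under lasting stress. Its start site is at position 57914300 of chromosome 12, on the minus strand. The single peak (chr12:57913683-57914401) scored 216.19 over 719 bp, from 101 bp upstream to 617 bp downstream. In the RefSeq annotation the next protein-coding gene upstream is MBD6, on the opposite strand, and MARS1 and LOC128125814 overlap DDIT3. HSPA5 has GAPVD1 as the next upstream, also on the opposite strand, and SYVN1 has SPDYC on the opposite strand, with MRPL49 overlapping SYVN1. The next genes upstream of the others are ZNRF3 for XBP1, MIEF1 for ATF4 and LOC124903401 for SEL1L. Peaks were not assigned to any of these genes, because their hg19 start sites were not used here.

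The 2 ERAD genes encode partners in 1 complex of the ER membrane. SYVN1 encodes HRD1, the ubiquitin ligase, and SEL1L encodes the adaptor that stabilises it and brings it substrates. The start site of SYVN1 is at position 64902004 of chromosome 11, on the minus strand, and its peak (chr11:64901527-64902482) was the widest of the 9 at 956 bp and scored 252.49. The start site of SEL1L is at position 82000205 of chromosome 14, on the minus strand. Its peak (chr14:81999770-82000255) covered 486 bp, from 50 bp upstream to 435 bp downstream, and scored 73.72, the lowest of the 9. At rank 9790 it was among the 4682 peaks at or below that score. The 2 partners therefore stood second and last in the order of highest scores, which ran HSPA5, SYVN1, ATF4, DDIT3, XBP1, SEL1L. With 1 library no spread is known for any score, so no 2 genes in this order are shown to differ. SYVN1, ATF4, DDIT3 and XBP1 lay within 193.62 to 252.49.

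**Figure D2:**
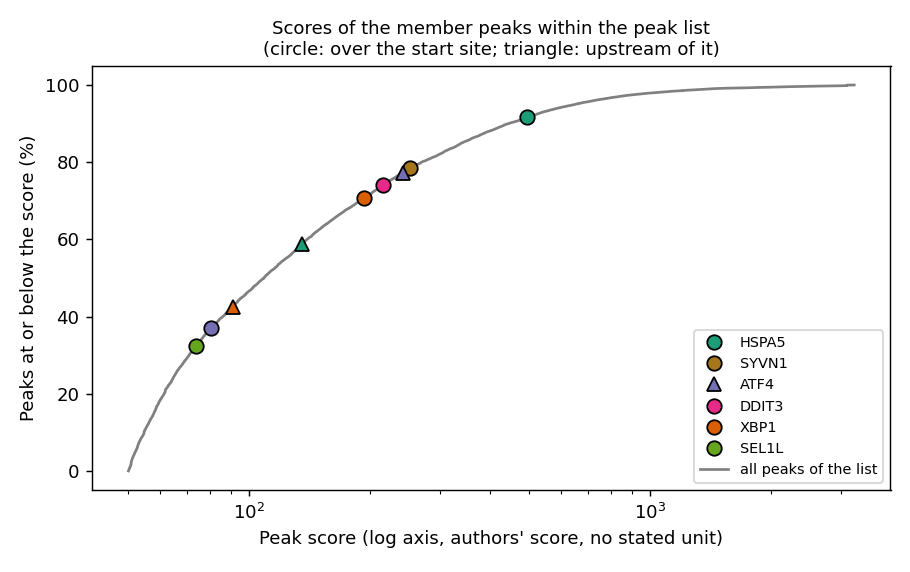
Score of each of the 9 peaks (log axis) against the percentage of all 14471 peaks at or below it. Circles are peaks over a start site and triangles are upstream peaks. They run from 32.4% at SEL1L to 91.6% at HSPA5.

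Placement relative to the start used here was alike in 5 of the 6 genes. The peak over the start reached further into the gene than upstream of it at HSPA5, XBP1, DDIT3, SEL1L and ATF4, with 92.0%, 91.2%, 85.9%, 89.7% and 78.1% of its bases downstream. Their midpoints lay 111.5 to 361 bp downstream. SYVN1 was the exception, with 478 bp upstream and 477 bp downstream of the start. Summed over the 6 peaks, 3319 bases lay downstream of the start and 852 upstream. Each gene was measured from 1 start only. RefSeq gives 2 promoter windows for XBP1, and the second (chr22:28800028-28800327 on GRCh38.p14) lies further into the gene. Measured from that second start, less of the XBP1 peak would lie downstream. The share of other genes with this placement was not analysed here.

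In the 3 genes with a pair of peaks, the gap between the peaks lay just upstream of the start. It ran from 302 to 60 bp before the start of HSPA5 (243 bp), from 174 to 78 bp before that of XBP1 (97 bp) and from 385 to 88 bp before that of ATF4 (298 bp). Of all peaks in the list, 20.4% had a neighbour as close as that of HSPA5 or closer, 12.0% one as close as that of XBP1 and 22.6% one as close as that of ATF4. At a wider limit, another peak lay within 1 kb of 6 of the 9 peaks (66.7%), against 4652 of all 14471 peaks (32.1%). Of the 6 gene windows 3 held 2 peaks, and of the 12184 tiles of 10 kb with a peak 20.8% overlapped 2 or more. These counts are small and were not tested. Whether each pair is 1 enriched region divided by the peak caller was not tested.

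Scores were set beside those of the whole list in 2 ways. At or above the list median of 108.9 were 6 of the 9 peaks, and the median score of the 9 was 194. The highest score per gene had a median of 229 over the 6 windows, against 133 over the tiles that overlapped a peak, and 5 of the 6 genes reached the list median, against 58.1% of those tiles. Wider peaks score higher in this list, and the 9 peaks had a median width of 677 bp, against 481 bp for all peaks. Compared only with peaks within 10% of their own width, 3 of the 9 scored above the median. The HSPA5 peak over the start stood at percentile 87.3 of 1563 such peaks, whose median was 229. The upstream peak of ATF4 stood at percentile 64.7 and its peak over the start at 53.1. DDIT3 was at percentile 49.5, the upstream peak of XBP1 at 39.1 and that of HSPA5 at 35.5. The peaks over the starts of SYVN1, XBP1 and SEL1L stood lowest for their width, at percentiles 29.6, 21.4 and 15.5.

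**Figure D3:**
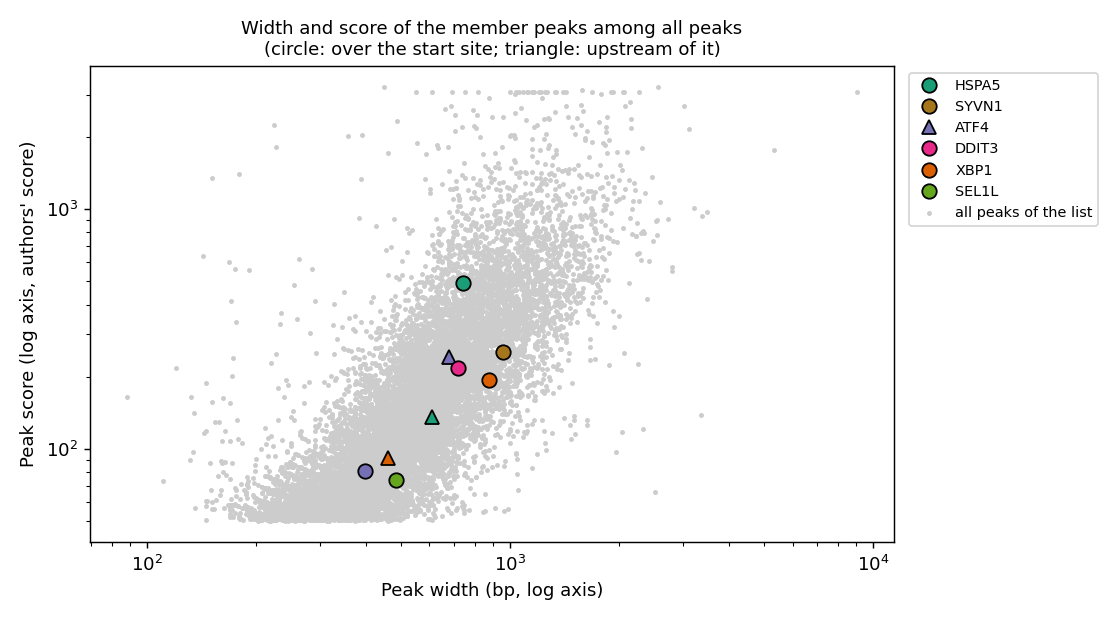
Width in bp against score of all 14471 peaks (grey, both axes logarithmic), with the 9 peaks of the 6 genes in colour, circles over a start site and triangles upstream. The HSPA5 peak of 741 bp lies high for its width. The SYVN1 peak of 956 bp, the XBP1 peak of 877 bp and the SEL1L peak of 486 bp lie low for theirs.

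The surroundings of the 6 genes differed widely. Within 500 kb of the start, 47 peaks lay around SYVN1, 25 around DDIT3, 16 around HSPA5, 10 each around XBP1 and ATF4, and 6 around SEL1L. Peaks thus reached 29 of the 100 tiles of 10 kb around SYVN1 (29.0%), against 4.55% of the tiles of chromosome 11, and 22 of 100 around DDIT3, against 4.68% of chromosome 12. Around HSPA5 15 of 100 tiles held a peak, against 4.15% of chromosome 9. On chromosome 22, with 8.57% of tiles, 10 of 100 did so around XBP1 and 9 of 100 around ATF4. SEL1L went the other way, with 4 of 100 tiles, against 5.99% of chromosome 14. Its peak was isolated. The next peak lay 312 kb away, and only 661 of the 14471 peaks had a wider gap to their nearest neighbour. Each stretch of 100 tiles was centred on a start inside a peak and included that peak. The share of tiles with a peak around other peaks or start sites was not analysed here. These counts therefore do not set the 6 genes apart.

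At 4 of the 6 genes a higher-scoring peak lay within 50 kb. The share of all peaks with such a neighbour was not analysed here, so the count does not set these genes apart. Over the whole list, the median gap from a peak to its nearest neighbour was 14.4 kb. SYVN1 had a peak of score 1326.34 at 16.7 kb downstream (chr11:64883993-64885278), more than its own 252.49. XBP1 had 1 of 317.34 at 27.4 kb downstream, DDIT3 1 of 281.91 at 25.9 kb upstream and ATF4 1 of 254.77 at 17.5 kb upstream. HSPA5 had 2 other peaks within 50 kb, of 476.09 at 20.0 kb upstream and of 303.17 at 40.0 kb downstream, both below its own. Outside the 5 kb windows, no peak lay closer than 11.8 kb to any of the 6 starts. None of these further peaks was assigned to a gene here.

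**Figure D4:**
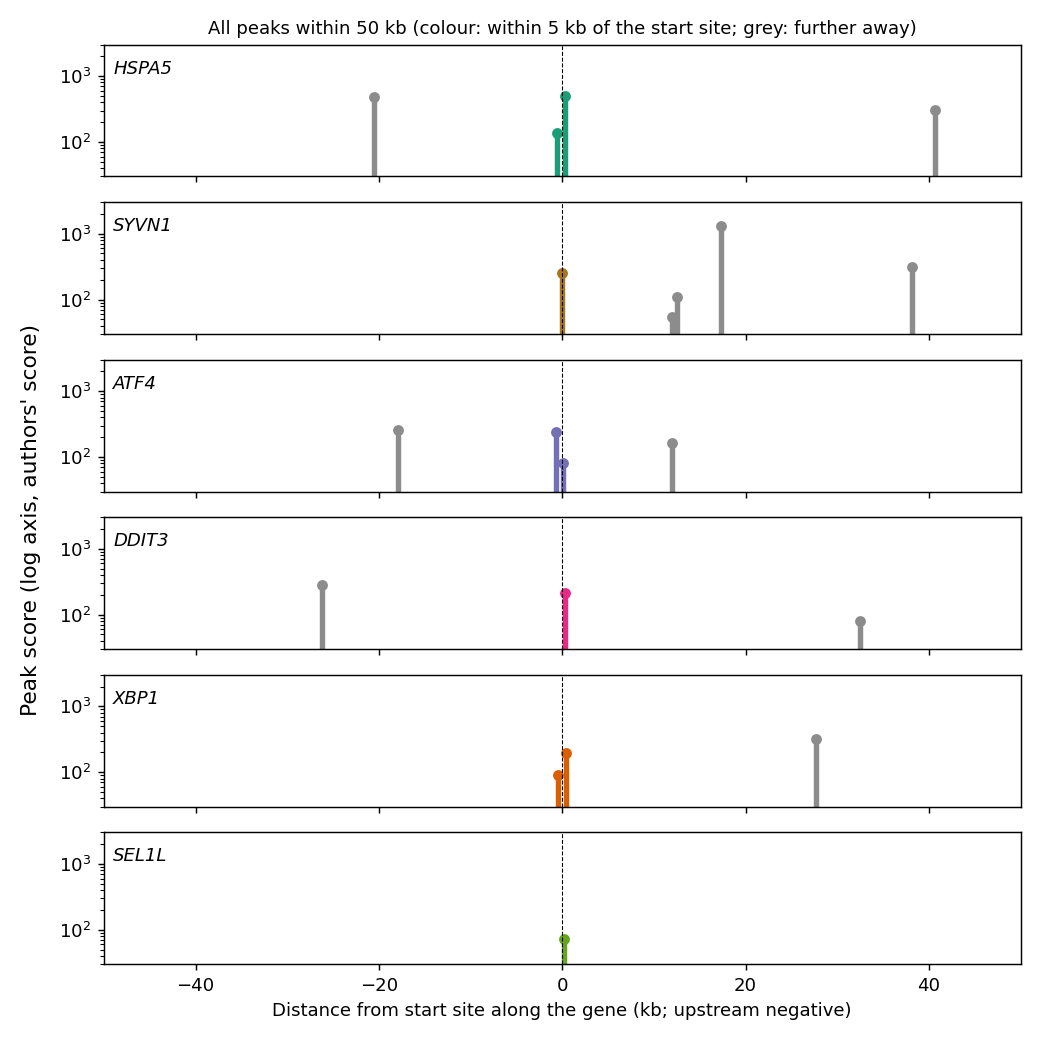
Score (log axis) of every peak within 50 kb of each start site against its distance along the gene in kb, upstream negative, with peaks within 5 kb in colour and others in grey. SYVN1 has 4 grey peaks, all downstream and 1 of them at 1326.34, and SEL1L has none.

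Other genes of the pathway could be described only by their promoter sequence, because their hg19 start sites were not used here. Of 34 listed genes, 30 were in the promoter table. A gene was counted if any of its windows held the letters, whereas the background is the share of all 35116 windows, so the 2 are not on the same footing. The ERSE was held by 5 of these 30, the folding factors CALR, CANX, CRELD2, HSP90B1 and PDIA6, and by 0.0769% of all windows. ERSE-II was held by 3, HERPUD1, HYOU1 and SDF2L1, and by 0.0541% of windows. The composite C/EBP-ATF element was held by 4, ASNS, ATF3, CHAC1 and HERPUD1, and by 3.61% of windows. The core of the unfolded protein response element was held by 3, HYOU1, VCP and UBE2J1, a ubiquitin-conjugating enzyme of ERAD, and by 0.729% of windows. AGGCCT was found in the promoter windows of 0 of the 6 genes examined for peaks, but these windows do not cover the whole of their peaks. It was held by 5 of the 30, CANX, DNAJB9, DNAJC3, ERN1 and UBE2G2, and by 10.9% of windows. CCAAT was held by 23 of the 30 and by 34.6% of windows. The ERSE was already known from chaperone genes of this response, so its share here is not an independent finding. Such shares describe the reference sequence and were not tested.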

How the data were processed

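ZFX ChIP-seq was analysed for 1 library of DAOY cells, grouped by its antibody. Bowtie2 2.0.0 and hg19 are named without roles in the submitters' processing notes, and hg19 was taken as the build of the peaks. The authors deposited 1 score per peak, with no unit. Peak names carry the name MACS, per the deposited file, while version, threshold and control of the caller were not stated in the sources used here. Lowest and highest scores were 50 and 3233.06. Starts were read as counted from 0 and are printed from 1. Genes, hg19 start sites and lists were chosen with earlier results of these data known. A peak was assigned by an overlap of at least 1 bp with 5 kb on either side of a start. All 6 genes were named whatever their values. Tiles of 10 kb gave the background. Promoter letters were searched in RefSeq windows (GRCh38.p14), and adjoining genes were taken from the order in RefSeq. Alternatives were windows of 1, 2 and 10 kb, higher scores, at least 50% of the peak inside, joined peaks and other tiles. Functions were tested on simulated data. Python 3.11.15, numpy 2.4.6, pandas 2.3.3 and matplotlib 3.10.9 were used.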

Additional observations from a re-analysis of the deposited data

How the results depend on the processing

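The count of 6 genes with a peak and of 9 peaks was the same with windows of 1, 2 and 10 kb, with at least 50% of each peak required inside the window, and with starts read as counted from 1. With peaks at or above the median score, or scoring 100 or more, 5 genes and 6 peaks were left, SEL1L having none. Joining peaks at most 1 kb apart gave 6 regions, 1 per gene. The highest score of a gene did not change in any of 34 values recomputed, since a filter either kept its highest-scoring peak or, at SEL1L, left none. The share of tiles with a peak was 4.15%, and it was 7.56% with 20 kb tiles, 1.89% with 4 kb tiles, 2.41% with peaks at or above the median score and 4.97% on the chromosomes of the 6 genes. Under 2 alternatives chosen after seeing the data, the nearest peak at or above the median score, or at 100 or more, lay 386 bp from the start of ATF4 and over 300 kb from that of SEL1L, and at the start itself in the other 4 genes. No paired analysis was possible because 1 library has peaks. Depth is unknown, so missed weak sites cannot be counted, and scores carry no error.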
